A study of Mus musculus with 9 samples.

Results

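Messenger RNA of 9 marker genes of bile duct epithelium and liver progenitor cells was followed in mouse liver regenerating after partial hepatectomy. The 9 genes, chosen by name from the gene symbols of the deposited table, were *Krt7*, *Krt19*, *Krt23*, *Sox9*, *Epcam*, *Cd24a*, *Prom1*, *Spp1* and *Cftr*, out of 43346 genes in the table.

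Whole liver of WT C57/BL6 mice (C57BL/6J in the study's methods), 12 weeks old and male by the study's methods, was profiled by RNA-Seq in 3 groups of 3 libraries. Vehicle (saline) 0 h libraries came from the lobes resected at surgery and served as baseline. Vehicle 40 h and NSC 40 h libraries came from the liver remnant 40 h after a 70% hepatectomy. NSC is NSC-87877, a small molecule inhibitor of the phosphatase SHP2 that also inhibits SHP1, given at 7.5 mg/kg per dose in 2 daily doses from before surgery until tissue collection. The sample records put the first dose 12 h before surgery, and the methods 1 day before. No NSC-treated resection specimens were used here, so the same 3 vehicle baselines served both 40 h groups, and the baseline differs from them in lobe as well as in time. The labels do not tell whether equally numbered baselines and remnants are from the same mouse, and p-values measure only the spread between these libraries.

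Cholangiocytes line the bile ducts and make up a small part of the liver, where hepatocytes dominate. They carry a keratin pair, KRT7 and KRT19, that hepatocytes largely lack, and they depend on the transcription factor SOX9 and on Notch signals during duct formation. After some injuries, cells with biliary markers multiply or hepatocytes switch on SOX9, whereas after partial hepatectomy hepatocytes mostly regenerate the mass by their own division. Several of these markers are also used by other cells: mesothelial cells of the liver capsule carry KRT7 and KRT19, and macrophages and stellate cells can make osteopontin, the product of *Spp1*.

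Promoter sequences (RefSeq, build GRCm38.p6, from 250 bases before to 50 after the start) were found for 6 of the 9 genes: *Krt7*, *Krt23*, *Epcam*, *Spp1*, *Cftr* and *Prom1*. Those of *Krt7* and *Spp1* are shown because these genes were higher than baseline in both 40 h groups, and that of *Krt23* because this keratin did not move with *Krt7*. They lie at chr15:101412153-101412452 (plus strand), chr5:104434861-104435160 (plus strand) and chr11:99493071-99493370 (minus strand). The *Krt7* start used by RefSeq lies 1360 bases downstream of the start of the gene in the deposited table. Capitals mark matches, on either strand, to 7 short motifs. These were the letters TGGGAA read by RBPJ, GGAATG read by TEAD factors, TGANTCA read by AP-1, ACAATG read by SOX factors, the TATA box TATAAA, the CCAAT box and the GC box GGGCGG.
Krt7: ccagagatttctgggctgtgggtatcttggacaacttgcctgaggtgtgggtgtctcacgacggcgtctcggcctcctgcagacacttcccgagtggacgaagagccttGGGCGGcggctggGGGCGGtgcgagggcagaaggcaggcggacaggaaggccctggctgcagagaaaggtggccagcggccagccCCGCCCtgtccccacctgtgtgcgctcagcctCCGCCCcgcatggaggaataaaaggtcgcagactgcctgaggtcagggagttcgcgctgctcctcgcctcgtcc
Spp1: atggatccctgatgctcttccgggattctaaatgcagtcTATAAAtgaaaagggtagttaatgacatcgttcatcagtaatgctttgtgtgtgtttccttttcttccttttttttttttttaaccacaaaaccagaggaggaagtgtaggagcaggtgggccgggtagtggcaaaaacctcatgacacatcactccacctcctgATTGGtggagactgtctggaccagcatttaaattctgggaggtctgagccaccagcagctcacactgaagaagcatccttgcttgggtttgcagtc
Krt23: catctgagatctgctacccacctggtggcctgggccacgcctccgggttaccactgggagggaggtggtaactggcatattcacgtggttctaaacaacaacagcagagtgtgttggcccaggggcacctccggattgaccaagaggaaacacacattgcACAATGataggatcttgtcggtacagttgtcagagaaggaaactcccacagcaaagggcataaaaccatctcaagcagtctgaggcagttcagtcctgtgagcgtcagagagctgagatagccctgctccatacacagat
The *Krt7* window held 4 GC boxes, the first at position -141 from the start, and none of the other motifs. The *Spp1* window held the letters TATAAA at -211 and a CCAAT box, read on the other strand, at -46, and the *Krt23* window 1 SOX match at -90. Of 32851 promoters of the same length, 35.7% held a GC box, 37.4% a CCAAT box, 13.6% TATAAA and 12.6% the SOX letters. The RBPJ letters, in 25.6% of promoters, and the AP-1 letters, in 7.81%, were found among the 6 genes only in *Prom1*, and the TEAD letters, in 14.7%, in none of them. These matches describe the letters of these windows and no binding was measured.

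Libraries held 23997363 to 42887589 counts, and NSC libraries were the shallowest with a median of 28786619. Levels are given as CPM, that is counts scaled to a common library size with TMM factors, and 3 counts corresponded to 0.07 to 0.125 CPM depending on the library. Of the 9 genes, 8 had enough counts for the test across all genes (edgeR quasi-likelihood test, 15024 genes, a gene being called at an adjusted p under 0.05), and *Cftr* did not. The hepatocyte marker list of 8 genes summed to 121499 to 169049 CPM per library, the cholangiocyte list of 13 genes, which includes the 9 members, to 62.8 to 143 CPM. In bulk tissue, fewer cells of a type and less RNA per cell cannot be told apart.

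At 40 h after hepatectomy, 4 of the 8 tested markers were higher in vehicle-treated livers than at baseline and 0 were lower. These were *Krt7*, *Krt19*, *Sox9* and *Spp1*, each with all 3 libraries above all 3 baselines. Across all genes tested, 23.7% were called in this comparison, 12.7% as higher and 11.0% as lower, and 24.2% had all libraries above baseline. At an unadjusted p under 0.05, 4 of the 8 markers passed, beside 37.0% of all genes. In NSC-treated livers, 3 of the 8 were higher than the same baselines (*Spp1*, *Krt7* and *Krt19*) and 0 lower, where 34.7% of all genes were called, 18.2% as higher and 16.5% as lower, and 5 of the 8 passed an unadjusted p under 0.05, beside 45.2% of all genes. The median log2 fold change of the 8 markers was 0.88 in each of these comparisons, beside 0.013 over all genes. Between NSC and vehicle at 40 h, edgeR called 0 of the 8 markers, and 0.0399% of all genes. At an unadjusted p under 0.05 there were 2 markers, *Krt7* and *Krt19*, where 19.5% of all genes passed. In 0 of the 8 were all NSC livers above all vehicle remnants, an order found in 10.3% of all genes. In this comparison, DESeq2 called 1 marker, *Krt19*, and edgeR's exact test called 0. Over all genes, DESeq2 called 733 of 12561 and the exact test 256 of 14485. The change of each tested marker is plotted with its interval.

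**Figure D1:**
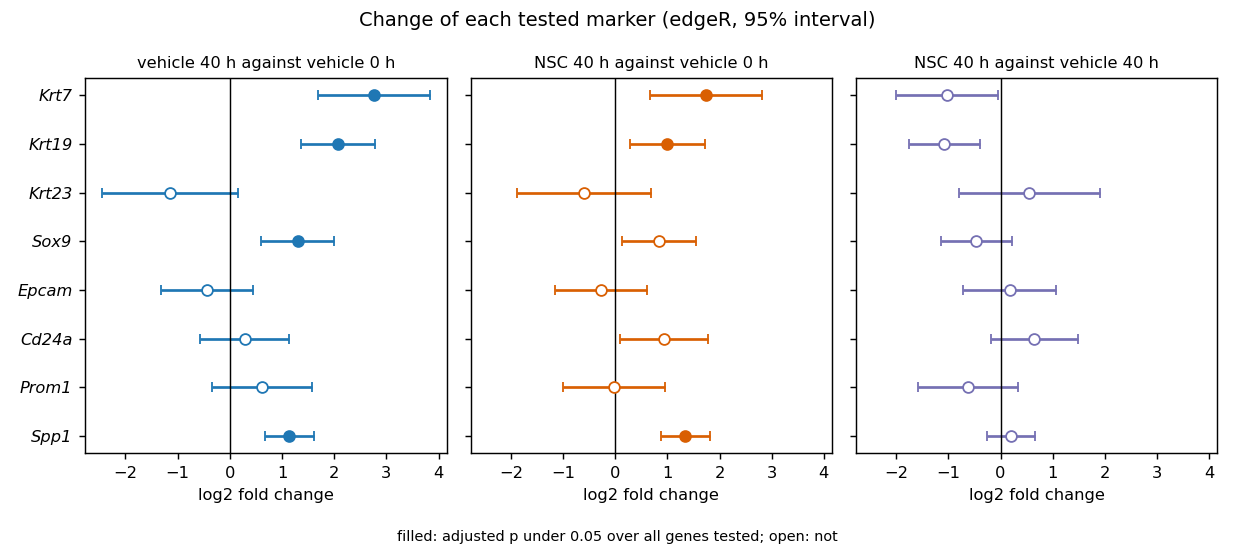
Log2 fold change (x axis) of the 8 tested markers (y axis) in the 3 comparisons, with 95% intervals from the edgeR fit; filled points passed an adjusted p under 0.05. *Krt7*, *Krt19*, *Sox9* and *Spp1* passed for vehicle against baseline, *Krt7*, *Krt19* and *Spp1* for NSC against baseline, and no marker passed between the 40 h groups.

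*Krt7* encodes a type II keratin of simple epithelia (ENSMUSG00000023039, chromosome 15, 101411043 to 101430313). It measured 0.60, 0.46 and 0.76 CPM in the baseline livers, 4.28, 3.71 and 4.43 CPM in the vehicle remnants, and 3.45, 1.97 and 0.63 CPM in the NSC remnants. All vehicle remnants lay above every baseline, while the lowest NSC liver, replicate 3, lay within the baseline range. The log2 fold change from baseline was 2.77 (SE 0.49, 95% interval 1.69 to 3.84, edgeR adjusted p = 0.0024) with vehicle. With NSC it was 1.75 (SE 0.49, edgeR adjusted p = 0.0174). That NSC call was lost without NSC replicate 1 (1.12, adjusted p = 0.0608) and without baseline replicate 1 (adjusted p = 0.0532) or 2 (adjusted p = 0.0581). Every NSC liver was below every vehicle remnant, an order that 12.2% of all genes shared, and the difference of -1.02 (95% interval -1.996 to -0.046) had an edgeR adjusted p of 0.237. Without NSC replicate 1 it was -1.66 and was called (adjusted p = 0.0308), and without NSC replicate 3 it was -0.61 (adjusted p = 0.326). The counts behind these levels were small, 15 to 23 at baseline and 16 to 171 at 40 h.

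*Krt19*, the type I keratin that pairs with KRT7 (ENSMUSG00000020911, chromosome 11, 100140810 to 100148665), measured 0.95, 0.70 and 1.15 CPM at baseline, 4.13, 4.07 and 3.58 CPM with vehicle and 2.52, 1.90 and 1.13 CPM with NSC. Again all vehicle remnants stood above all baselines and all NSC livers below all vehicle remnants, with NSC replicate 3 inside the baseline range. The log2 fold change was 2.07 with vehicle (SE 0.33, 95% interval 1.36 to 2.78, edgeR adjusted p = 0.0011). It was 0.99 with NSC (SE 0.33, edgeR adjusted p = 0.035). The NSC call was lost when any of 6 single libraries was left out, with adjusted p up to 0.116 without NSC replicate 1, where the value was 0.71. It was also lost in edgeR's exact test (adjusted p = 0.0556), in a fit of these 2 groups alone (adjusted p = 0.0795) and with the replicate number as a block (adjusted p = 0.0507). NSC against vehicle gave -1.08 (SE 0.31, 95% interval -1.75 to -0.40, edgeR adjusted p = 0.119). This difference was called by DESeq2 (-1.06, adjusted p = 0.0303) and by edgeR without NSC replicate 1 (-1.37, adjusted p = 0.0259). It was -0.74 after correction for GC content (adjusted p = 0.468).

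Like this keratin pair, markers of mesothelium, the cell sheet over the liver surface, summed higher in all vehicle remnants than in all baselines. The list of 7 genes (*Msln*, *Upk3b*, *Upk1b*, *Wt1*, *Lrrn4*, *Gpm6a* and *Muc16*) summed to 2.53, 2.14 and 4.39 CPM at baseline, 25.3, 25.5 and 30.6 CPM with vehicle, and 27.0, 15.6 and 1.13 CPM with NSC. In NSC replicate 1 this sum lay within the vehicle range, while *Krt7* (3.45 CPM) and *Krt19* (2.52 CPM) lay below every vehicle remnant. NSC replicate 3, the NSC liver with the least *Krt7* and *Krt19*, also had the lowest mesothelial sum of all 9, with *Msln* and *Upk3b* each at 0.117 CPM, about the level of 3 counts. Of 6 list genes tested, 4 were called as higher with vehicle, 2 with NSC and 0 between the 40 h groups, and none was called as lower. Of all genes, 12.7% were called as higher with vehicle, 18.2% with NSC and 0% between the 40 h groups. Without NSC replicate 3, the log2 fold change from baseline with NSC was 2.16 for *Krt7* (edgeR adjusted p = 0.0015) and 1.24 for *Krt19* (edgeR adjusted p = 0.0105). The part of mesothelial cells in the keratin results was not tested. *Epcam*, an epithelial marker, did not follow the mesothelial sum in the same way, as plotted.

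**Figure D2:**
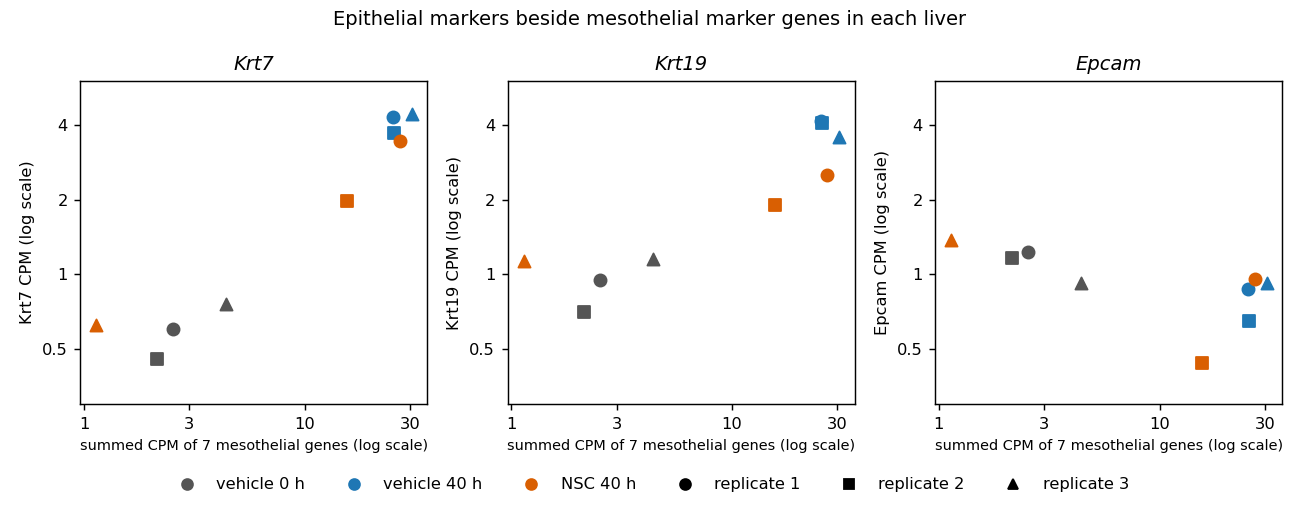
Level of *Krt7*, *Krt19* and *Epcam* (y axis, CPM, log scale) against the summed level of 7 mesothelial marker genes (x axis, CPM, log scale) in each of the 9 livers. NSC replicate 3 (orange triangle) lies with the baseline livers (grey) for *Krt7* and *Krt19*, and the vehicle remnants (blue) lie at the upper right; *Epcam* shows no such rise.

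*Krt23* encodes another type I keratin, found in biliary cells and inducible in hepatocytes (ENSMUSG00000006777, chromosome 11, 99477974 to 99493137). Its levels were 0.98, 0.27 and 0.89 CPM at baseline, 0.33, 0.21 and 0.44 CPM with vehicle and 0.24, 0.34 and 0.86 CPM with NSC. The groups overlapped in every comparison, and counts were 8 to 31 per library. The log2 fold change was -1.15 with vehicle (SE 0.60, edgeR adjusted p = 0.187) and -0.60 with NSC (SE 0.59, edgeR adjusted p = 0.458).

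Among the keratins of simple epithelia that hepatocytes also carry, *Krt18* was called and *Krt8* was not. The mean of *Krt18* was 198 ± 24.4 CPM in baseline livers, 472 ± 38.3 CPM in vehicle remnants and 366 ± 177 CPM in NSC remnants (SD of 3 livers), and its log2 fold changes were 1.26 with vehicle (edgeR adjusted p = 0.00785) and 0.89 with NSC (edgeR adjusted p = 0.0277). The NSC call of *Krt18* was lost without NSC replicate 2 (0.43, edgeR adjusted p = 0.132), without baseline replicate 1 (adjusted p = 0.0814) or 2 (adjusted p = 0.082) and in a fit of these 2 groups alone (adjusted p = 0.06). *Krt8*, its partner, averaged 272 ± 35.0 CPM, 398 ± 39.5 CPM and 306 ± 141 CPM in the same order. Its log2 fold changes of 0.55 (edgeR adjusted p = 0.168) and 0.17 (edgeR adjusted p = 0.656) did not pass, though that with vehicle was called by edgeR's exact test (adjusted p = 0.0138) and in a fit of these 2 groups alone (adjusted p = 0.0205).

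*Sox9* encodes a transcription factor of bile duct formation that also marks periportal hepatocytes and progenitor cells (ENSMUSG00000000567, chromosome 11, 112782224 to 112787760). It measured 3.76, 1.95 and 3.23 CPM at baseline, 9.28, 6.58 and 6.16 CPM with vehicle, and 3.33, 7.10 and 5.60 CPM with NSC. All vehicle remnants were above baseline, and NSC replicate 1 alone among the remnants fell in the baseline range. The log2 fold change was 1.30 with vehicle (SE 0.32, 95% interval 0.60 to 2.00, edgeR adjusted p = 0.0124), a call lost without vehicle 40 h replicate 1 (1.10, adjusted p = 0.0554). With NSC it was 0.84 (SE 0.32, 95% interval 0.14 to 1.54, edgeR adjusted p = 0.0613). This value was called by DESeq2 (adjusted p = 0.0398), with library size as the only scaling (adjusted p = 0.0347), with all genes of at least 1 count tested (adjusted p = 0.0391) and without NSC replicate 1 (1.09, adjusted p = 0.0106). The 40 h groups differed by -0.46 (95% interval -1.15 to 0.22, edgeR adjusted p = 0.431).

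*Spp1* encodes osteopontin, a secreted matrix protein of cholangiocytes and macrophages (ENSMUSG00000029304, chromosome 5, 104435118 to 104441050). It was by far the most abundant of the markers, with 31.2, 36.3 and 32.0 CPM at baseline, 95.9, 62.7 and 60.9 CPM with vehicle, and 72.5, 110 and 70.3 CPM with NSC. All 6 remnants lay above all 3 baselines. The log2 fold change was 1.14 with vehicle (SE 0.22, 95% interval 0.67 to 1.61, edgeR adjusted p = 0.0031). It was 1.35 with NSC (SE 0.22, 95% interval 0.87 to 1.82, edgeR adjusted p = 0.000874). The 40 h groups overlapped and differed by 0.20 (95% interval -0.26 to 0.67, edgeR adjusted p = 0.617). The sum of 8 macrophage genes ranged from 152 to 223 CPM at baseline, from 149 to 272 CPM with vehicle and from 295 to 489 CPM with NSC, and 2, 5 and 0 of the 8 were called, all as higher, in the vehicle, NSC and 40 h comparisons. Of all genes, 23.7%, 34.7% and 0.0399% were called in these comparisons, and 12.7%, 18.2% and 0% were called as higher. Between the 40 h groups 5 of the 8 had all NSC livers above all vehicle remnants, as 10.3% of all genes did. An unadjusted edgeR p under 0.05 was reached there by 5 of the 8 and by 19.5% of all genes. The sum of 5 genes of lipid-associated macrophages, a state in which *Spp1* is high, ranged from 54.2 to 161 CPM at baseline, from 103 to 232 CPM with vehicle and from 88.7 to 109 CPM with NSC, and 3, 2 and 0 of the 5 were called, again all as higher, beside the same shares of all genes. Within this sum *Fabp5* held 139 of 161 CPM in baseline replicate 2 and 185 of 232 CPM in vehicle 40 h replicate 2. *Gpnmb* measured 0, 0.397 and 0.132 CPM at baseline, 6.48, 2.02 and 0.775 CPM with vehicle and 2.94, 0.170 and 0.078 CPM with NSC. The part of macrophages in the *Spp1* result was not tested.

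**Figure D3:**
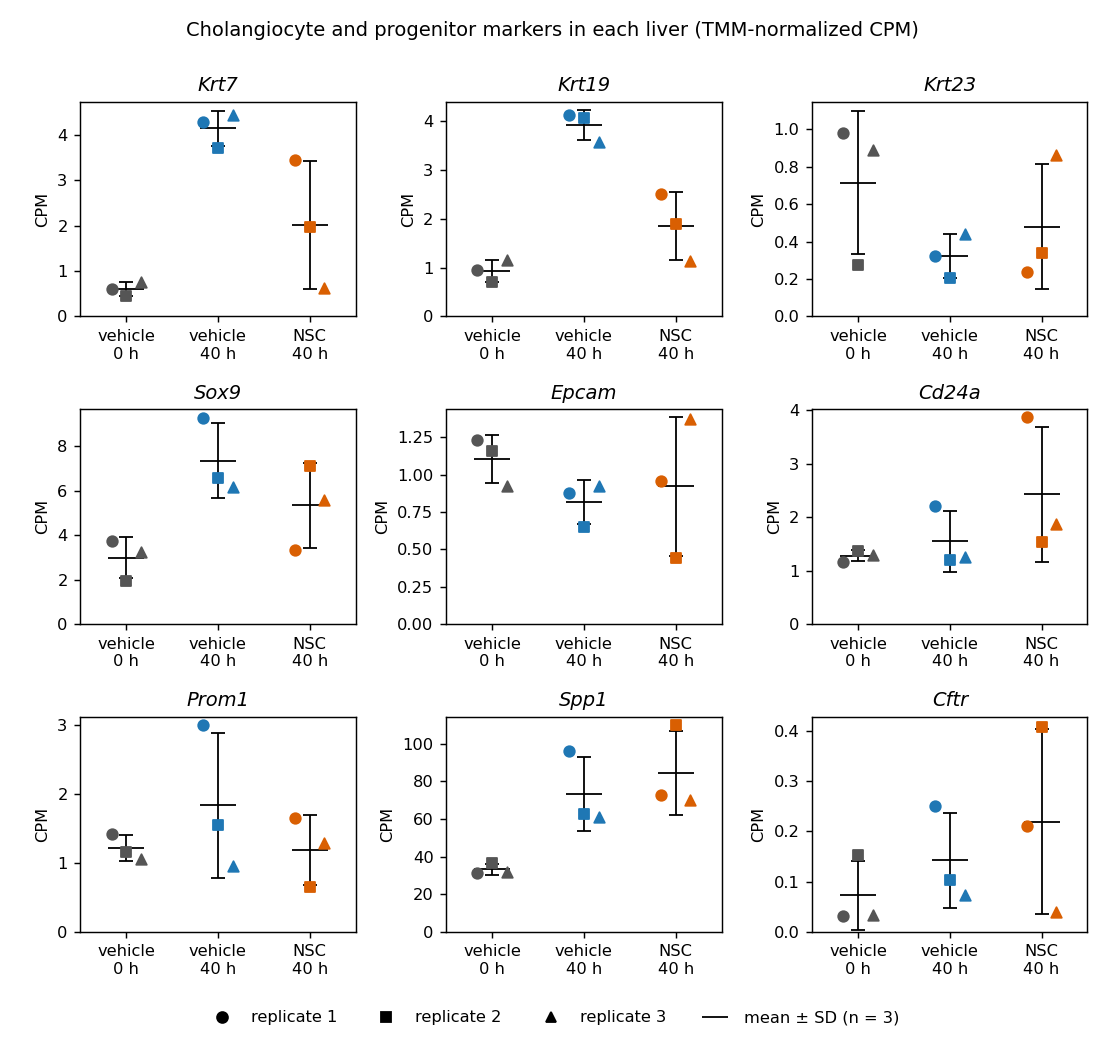
Level of each of the 9 markers (y axis, TMM-normalized CPM, from 0) in each liver, with the mean and SD of each group (n = 3). *Krt7* and *Krt19* stand clear of baseline with vehicle but spread down to it with NSC, *Spp1* is above baseline in all 6 remnants, and the groups overlap for *Krt23*, *Prom1* and *Cftr*.

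The surface markers *Epcam*, *Cd24a* and *Prom1* were not called in any of the 3 comparisons. *Epcam*, an adhesion molecule of cholangiocytes that adult hepatocytes lack (ENSMUSG00000045394, chromosome 17, 87635979 to 87651106), measured 1.23, 1.16 and 0.92 CPM at baseline, 0.88, 0.65 and 0.92 CPM with vehicle and 0.96, 0.44 and 1.37 CPM with NSC. The vehicle remnants were all below the baselines, an order found in 22.0% of all genes, though the closest pair of livers was 0.924 and 0.923 CPM. The log2 fold changes were -0.44 (95% interval -1.33 to 0.44) with vehicle and -0.27 (95% interval -1.15 to 0.62) with NSC, and with 28 to 39 counts at baseline these intervals include both a fall and a rise.

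*Cd24a*, a small glycosylated surface protein of biliary and progenitor cells that leukocytes also carry (ENSMUSG00000047139, chromosome 10, 43579169 to 43584262), measured 1.17, 1.37 and 1.29 CPM at baseline. It measured 2.20, 1.19 and 1.25 CPM with vehicle and 3.87, 1.53 and 1.88 CPM with NSC. The NSC livers were all above baseline, as 24% of all genes were, with a log2 fold change of 0.93 (SE 0.39, 95% interval 0.086 to 1.77, edgeR adjusted p = 0.0815). It was called without NSC replicate 2 (1.18, adjusted p = 0.048), and was 0.41 with an adjusted p of 0.382 under the least favourable omission of 1 library, that of NSC replicate 1. NSC replicate 1 also had the largest macrophage sum, 489 CPM, and the part of leukocytes in this value was not tested. With vehicle the change was 0.29 (SE 0.39, edgeR adjusted p = 0.641).

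*Prom1* encodes CD133, a membrane protein of apical protrusions used as a progenitor marker (ENSMUSG00000029086, chromosome 5, 43993625 to 44102032). It measured 1.42, 1.16 and 1.06 CPM at baseline, 3.00, 1.55 and 0.96 CPM with vehicle, and 1.65, 0.65 and 1.29 CPM with NSC, so vehicle 40 h replicate 1 alone stood high. The log2 fold change was 0.61 with vehicle (SE 0.44, edgeR adjusted p = 0.34) and 0.066 without that library. With NSC it was -0.017 (SE 0.45, edgeR adjusted p = 0.982). The gene overlaps a predicted gene, *Gm16401*, that held 10 counts over all 9 libraries.

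*Cftr*, the chloride channel of the cholangiocyte apical membrane (ENSMUSG00000041301, chromosome 6, 18170687 to 18322768), was near the limit of detection. It had 1, 5 and 1 counts at baseline, 10, 4 and 2 with vehicle, and 7, 12 and 1 with NSC. Tested with all genes of at least 1 count, its log2 fold change was 0.96 with vehicle (SE 0.94, edgeR adjusted p = 0.59) and 1.55 with NSC (SE 0.93, edgeR adjusted p = 0.276). A difference in *Cftr* was not detectable at this depth.

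Per length of transcript, as the authors' FPKM, *Spp1* led in every group with means of 19.4, 43.8 and 54.1 FPKM at baseline, with vehicle and with NSC. At baseline *Sox9* (0.696 FPKM) and *Cd24a* (0.680 FPKM) followed, with overlapping ranges, then *Epcam* (0.523 FPKM), *Krt19* (0.487 FPKM), *Krt23* (0.441 FPKM) and *Prom1* (0.259 FPKM), each overlapping its neighbour. *Krt7* (0.0829 FPKM) and *Cftr* (0.0090 FPKM) were lowest and did not overlap the genes above them. With vehicle, *Krt19* (2.06 FPKM) and *Sox9* (1.75 FPKM) came next after *Spp1* and overlapped, and *Krt7* (0.574 FPKM) had moved up among *Cd24a*, *Prom1* and *Epcam*. With NSC, *Cd24a* (1.44 FPKM), *Sox9* (1.36 FPKM) and *Krt19* (1.07 FPKM) followed *Spp1*, and every neighbour from *Cd24a* down to *Prom1* (0.285 FPKM) overlapped the next. *Cftr* (0.0296 FPKM) stayed below all others with NSC.

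Of 26 other biliary genes 22 were tested, and 6 were called as higher and 0 as lower with vehicle, while 5 were higher and 1 lower with NSC, where 23.7% and 34.7% of all genes were called. Their medians of -0.0081 and 0.20 (log2) stood beside 0.013 over all genes in both comparisons. Log2 fold changes were positive for 10 and negative for 12 of the 22 with vehicle, and for 12 and 10 with NSC. *Anxa13* was lower in all remnants than in all baselines but was not called. Its log2 fold changes were -1.33 with vehicle (edgeR adjusted p = 0.0511) and -1.09 with NSC (edgeR adjusted p = 0.0788). *Elf3*, an epithelial transcription factor, had a log2 fold change of 2.07 with vehicle (edgeR adjusted p = 0.00198) and 1.78 with NSC (edgeR adjusted p = 0.00311). The collagen receptor gene *Ddr1* rose by 1.86 and 1.09, and *Slc10a2*, the bile acid transporter of the cholangiocyte apical membrane, by 1.51 and 1.64. Mean *Slc10a2* was 19.6 CPM at baseline, beside 1.11 CPM for *Epcam*, and its cell source was not tested. The *Ddr1* call with NSC was lost without baseline replicate 1 (0.95, edgeR adjusted p = 0.0512), and *Slc10a2* with NSC was 0.96 after correction for GC content, still called (edgeR adjusted p = 0.00424). *Krt18* was described above. With NSC the fifth higher gene was *Onecut2*, a biliary lineage factor, at 0.71 (edgeR adjusted p = 0.0491), and the lower one was *Slc4a2*, the chloride/bicarbonate exchanger, at -0.57 (edgeR adjusted p = 0.0251). Neither call held after GC correction, which gave 0.25 for *Onecut2* (edgeR adjusted p = 0.423) and -0.14 for *Slc4a2* (edgeR adjusted p = 0.411). *Onecut2* also lost its call without any single library other than NSC replicate 3, with 0.38 without NSC replicate 1. Its call was lost as well with RLE factors, with all genes of at least 1 count tested, in the fit of 2 groups and with the replicate number as a block (0.66, edgeR adjusted p = 0.0696). *Slc4a2* lost its call without baseline replicate 2 or 3 or NSC replicate 1 or 2 and with library size as the only scaling. Between the 40 h groups 0 were called by edgeR, 2 passed an unadjusted p under 0.05, as 19.5% of all genes did, and DESeq2 and the exact test called 0. These 2 were *Ddr1* at -0.78 (adjusted p = 0.164; -0.40 after GC correction) and *Atp1b1*, a sodium pump subunit, at -0.33 (adjusted p = 0.239).

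Of 10 further progenitor-associated genes 8 were tested, and 6 were called as higher and 0 as lower in each comparison with baseline, where 23.7% and 34.7% of all genes were called, with median log2 fold changes of 1.13 and 1.46 beside 0.013 over all genes. The progenitor genes *Dlk1* and *Foxl1* were not tested, with a mean of 0 CPM in every group. *Afp*, the fetal serum protein, rose by 2.83 with vehicle (edgeR adjusted p = 0.00137) and by 2.46 with NSC (edgeR adjusted p = 0.00197). *Tnfrsf12a*, the receptor of the cytokine TWEAK, rose by 2.75 and 2.28. *Ncam1* (2.37) and *Lgr5* (1.30), an adhesion molecule and a Wnt target, were among the leading genes with vehicle, and *Kit* (1.70) and *Cd44* (1.51), a growth factor receptor and a hyaluronan receptor, with NSC. Between the 40 h groups edgeR called 0 of 8 and the exact test 0. DESeq2 called 1 (*Kit*), and 733 of 12561 genes among all. An unadjusted edgeR p under 0.05 was reached by 2 of the 8 and by 19.5% of all genes. The 2 were *Kit* at 0.82 (adjusted p = 0.137) and *Ncam1* at -0.95 (adjusted p = 0.252). These genes are not confined to biliary or progenitor cells.

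Genes of the Notch pathway, in which ligands on neighbouring cells trigger the cleavage of NOTCH receptors whose freed part switches on *Hes* and *Hey* genes with RBPJ, moved in both directions. Of 19 genes 17 were tested. With vehicle 1 was called as higher, the target gene *Hes1* (1.07, edgeR adjusted p = 0.0136), and 1 as lower, the endothelial ligand gene *Dll4* (-1.33, edgeR adjusted p = 0.00577), where 23.7% of all genes were called. The *Hes1* call was lost without baseline replicate 3 (0.92, edgeR adjusted p = 0.0615) or vehicle 40 h replicate 1 (adjusted p = 0.0578) or 3 (adjusted p = 0.0508). With NSC, *Dll1* (1.63) and *Hes1* (1.42) were higher, and *Dll4* (-1.58), the endothelial receptor gene *Notch4* (-1.12), *Heyl* (-1.01), *Rfng* (-0.62) and *Notch2* (-0.62) were lower, where 34.7% of all genes were called. After GC correction *Notch4* (-0.55, edgeR adjusted p = 0.235), *Rfng* (-0.15, edgeR adjusted p = 0.517) and *Notch2* (-0.44, edgeR adjusted p = 0.0681) were no longer called. Calls with NSC were also lost without baseline replicate 3 for *Notch4*, *Heyl*, *Rfng* and *Notch2*, without baseline replicate 2 for *Notch4* (-0.77, edgeR adjusted p = 0.126), without NSC replicate 1 for *Rfng*, without NSC replicate 2 for *Notch4* and *Heyl*, and without NSC replicate 3 for *Notch4* and *Notch2*. With library size as the only scaling *Rfng* and *Notch2* were not called, and *Rfng* was not called in the exact test or the fit of 2 groups. *Jag1*, the ligand gene tied to bile duct formation, had log2 fold changes of 0.86 (edgeR adjusted p = 0.0573) and 0.62 (edgeR adjusted p = 0.133), the latter 0.22 without NSC replicate 1. With vehicle *Jag1* was called by DESeq2 (0.85, adjusted p = 0.0342), by the exact test (adjusted p = 0.00494), with all genes of at least 1 count tested (adjusted p = 0.046), in the fit of 2 groups (adjusted p = 0.0182) and without NSC replicate 1 (adjusted p = 0.0133). *Notch2*, its receptor in that setting, was at -0.40 with vehicle (edgeR adjusted p = 0.134). Between the 40 h groups edgeR called 0 of 17, 2 passed an unadjusted p under 0.05 (19.5% of all genes), and DESeq2 and the exact test called 0. The 2 were *Rfng* at -0.60 (adjusted p = 0.137) and *Notch1* at -0.53 (adjusted p = 0.187), which were -0.26 and -0.22 after GC correction. *Onecut2*, *Slc4a2*, *Anxa13*, *Heyl* and, for NSC against baseline, *Rfng* were named after their values were seen. The same holds for *Dlk1*, *Foxl1*, *Fabp5*, *Gpnmb*, *Alas2* and *Hbb-bs*.

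**Figure D4:**
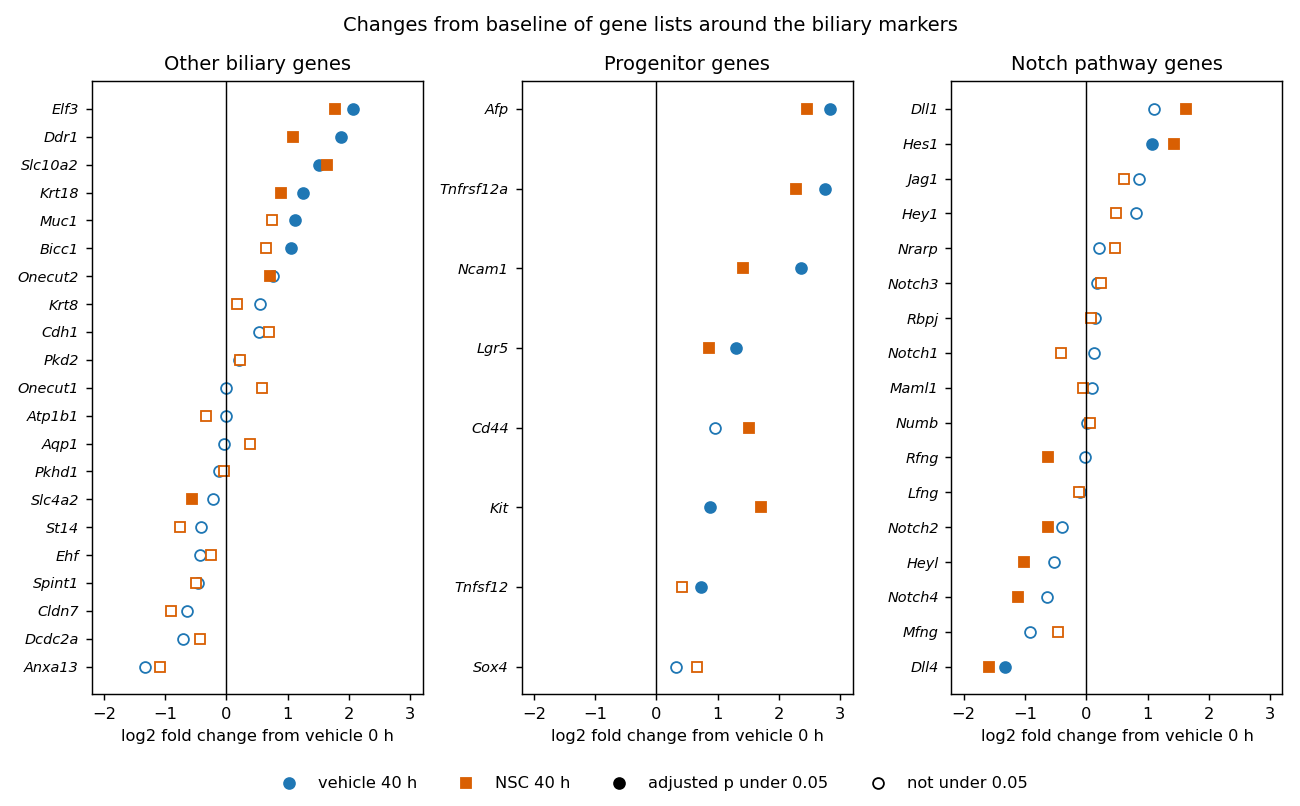
Log2 fold change from vehicle 0 h (x axis) of the tested biliary (all but 1), progenitor and Notch pathway genes (y axis), with vehicle 40 h as blue circles and NSC 40 h as orange squares; filled symbols passed an adjusted p under 0.05 in edgeR. All 8 progenitor genes lie to the right of 0 in both groups, while biliary and Notch genes lie on both sides.

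Across the 9 livers, *Krt7* and *Krt19* varied most alike among the markers (Pearson r = 0.98 of log2 CPM, n = 9 libraries that share depth, scaling and groups). Among all genes tested, the closest to *Krt7* were *Vcan*, *Bcl2l14* and *Pdpn* (r of 0.99 each), and the closest to *Krt19* were *Tcf7* (0.99), *Vcan* and *Qsox1* (0.98 each). For *Sox9* they were *Nelfa*, *Nfxl1* and *Man1b1* (0.94 to 0.98), and for *Spp1* *Tmem71*, *Smpd3* and *Zranb3* (0.97 to 0.98). For *Krt23* they were *Phf7*, *Elovl3* and *Bag1*, for *Epcam* *Ccl21a*, *Fam114a2* and *Gm10136*, for *Cd24a* *Clec4a3* and *Wipf1*, and for *Prom1* *Agpat3*, *Ace* and *Chrnb1* (0.89 to 0.95 over these markers). With 15024 genes and 9 libraries in 3 groups such values are a description.

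Exocrine pancreas and gallbladder left little trace. Of 8 exocrine pancreas genes, 7 had 0 counts in every library. The 7 gallbladder and mucous epithelium genes summed to 0.126 to 0.407 CPM per library, with *Muc5b*, *Agr2* and *Tff1* at 0 throughout. The 5 red cell genes summed to 197 to 285 CPM at baseline and to 85.4 to 192 CPM at 40 h. Within this sum *Alas2* was lower in every remnant, at 23.8 to 77.3 CPM, than in every baseline, where it reached 166 CPM. The globin gene *Hbb-bs* overlapped, with 51.0 to 92.8 CPM at baseline and 42.4 to 92.9 CPM at 40 h. The 4 T and B cell genes summed to 1.37 to 6.14 CPM at baseline and to 0.443 to 1.59 CPM at 40 h. In the red cell and the T and B cell lists, 1 of 3 tested genes each was called as lower than baseline with vehicle. The same number was called as lower with NSC, and none was called as higher. Of all genes, 11.0% were called as lower with vehicle and 16.5% with NSC.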

How the data were processed

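Whole-liver RNA-Seq of 9 mouse libraries (3 vehicle 0 h, 3 vehicle 40 h, 3 NSC 40 h) was analysed. Libraries were made with a stranded mRNA kit. Paired-end reads were aligned by the authors with STAR 2.6.1 (named in the submitters' processing notes) in the MAP-RSeq pipeline and assigned to genes with featureCounts of Subread 1.5.1. The authors deposited raw counts per gene without normalization, and FPKM, which are the same counts scaled by gene length and library total (members recomputed from counts within a relative difference of 0.000639). The sources name the human build hg38, whereas the table holds mouse identifiers; coordinates of 6 of the 9 members equal those of GENCODE M21 (GRCm38), and those of *Epcam*, *Cd24a* and *Prom1* differ at an end. Whether counting used strand is not given in the sources used here.

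Counts were tested in R 4.3.3 with edgeR 4.0.16: TMM factors, filterByExpr, 1 robust quasi-likelihood fit of all 9 libraries with the condition as the only term, and Benjamini-Hochberg adjustment over 15024 genes per comparison. The study names edgeR and a false discovery rate, not the test. SE is the absolute log2 fold change divided by the square root of F. The procedure was also run on simulated counts that held no shifts of single libraries, and the outcome is not used here. Pearson r used log2 CPM (prior count 2). No library duplicated another (chi-square per gene 24.9 to 151 within groups). The floor of 3 counts reflects counting error alone.

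The members, the biliary, progenitor and Notch lists and the cell type marker lists (cholangiocyte, hepatocyte, macrophage, lipid-associated macrophage, mesothelium, exocrine pancreas, gallbladder, red cell, T and B cell) were chosen with earlier results of these data known. Of the 13 cholangiocyte genes 9 are the members and 4 are in the biliary list. From each list the text names, per comparison, up to 4 called genes with the largest change, or the 2 smallest p where none was called, with *Krt8*, *Krt18*, *Jag1*, *Notch2* and *Hes1* in any case, and the 3 genes closest to each tested member; 1 gene close to *Cd24a* and 1 biliary gene of the plot are not reported here by name. Alternatives were DESeq2 1.42.0, edgeR's exact test, RLE factors, no scaling beyond library size, a filter of 1 count in total or of 10 counts in each library, the 2 groups compared alone, a replicate block, a log2 fold change threshold of 1.5, correction for GC content (loess span 0.5, GC known for 99.2% of tested genes), FPKM in place of CPM, and each library left out in turn. Promoters came from RefSeq (GRCm38.p6) and plots from Python 3.11.15 with matplotlib 3.10.9.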

Additional observations from a re-analysis of the deposited data

How the results depend on the processing

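The values here are limited by 3 livers per group and by counts of at most 171 per library for 7 of the 9 markers. With a log2 fold change over 1.5 also required, 2 markers were called with vehicle (*Krt7* and *Krt19*) and 1 with NSC (*Krt7*), in place of 4 and 3. Over all genes, 1085 and 1222 of 15024 passed this threshold. The same threshold left 3 and 2 biliary genes, 3 progenitor genes with vehicle, and 0 and 2 Notch genes. With 1 library left out, the number of markers called was 3 to 4 with vehicle and 1 to 3 with NSC, where leaving out baseline replicate 1 or 2 gave 1. Between the 40 h groups it was 0 to 2, with 2 (*Krt7* and *Krt19*) without NSC replicate 1, and 1 with DESeq2. The biliary count was 4 to 8 with vehicle, 3 to 7 with NSC (3 without baseline replicate 1 or NSC replicate 2) and 0 to 1 between the 40 h groups. DESeq2 called 1 progenitor gene, *Kit*, between the 40 h groups. Notch genes called with vehicle numbered 4 with DESeq2, 5 with the exact test, 4 in the fit of these 2 groups and 1 to 4 with 1 library left out (1 without baseline replicate 3 or vehicle 40 h replicate 1 or 3, and 4 without NSC replicate 1). With NSC they numbered 4 after GC correction and 3 to 7 with 1 library left out (3 without baseline replicate 3). Over all genes with vehicle, DESeq2 called 4196 of 16629, the exact test 4817 of 14676 and the fit of 2 groups 4474 of 14676. After GC correction 4432 of 15024 genes were called with NSC. Leaving out 1 library gave 2285 to 4538 called genes with vehicle and 3604 to 5234 with NSC.

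Signs turned only for values that were not called. With 1 library left out, the log2 fold change of NSC against vehicle ranged from -0.15 (without NSC replicate 3) to 0.89 for *Krt23*, from -0.20 (without NSC replicate 3) to 0.51 for *Epcam* and from -0.036 (without NSC replicate 2) to 0.44 for *Spp1*. That of NSC against baseline ranged from -0.64 to 0.071 (without NSC replicate 2) for *Epcam*, from -0.33 to 0.28 (without NSC replicate 2; 0.11 without baseline replicate 1) for *Prom1* and from -0.25 (without NSC replicate 2) to 0.43 for *Krt8*. That of vehicle against baseline ranged from -0.059 (without vehicle 40 h replicate 1) to 0.45 for *Cd24a*. GC correction gave -0.067 for *Spp1* between the 40 h groups, and library size as the only scaling 0.14 for *Prom1* in NSC against baseline. The causes were not tested. Of the values of the tested markers under the alternatives, 417 kept direction and side of the threshold, 17 lost a call, 8 gained 1 and 9 changed sign.

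Over all genes, the 40 h groups differed in 6 genes in the quasi-likelihood fit, 733 with DESeq2 and 256 with the exact test, 221 with all genes of at least 1 count, 994 without NSC replicate 1 and 111 without vehicle 40 h replicate 3. With library size as the only scaling, the median log2 fold change of all genes shifted to 0.15 for NSC against baseline and 0.14 for NSC against vehicle, and 65.4% in place of 52.4% of the genes called with NSC against baseline were higher. The replicate number as a block left the numbers of markers called at 4 and 0 for vehicle against baseline and NSC against vehicle, and took *Krt19* out for NSC against baseline (0.96, adjusted p = 0.0507). Deviations of same-numbered libraries from their group means correlated by -0.048 to 0.13, and not every pair exceeded 0.1, so the numbers were not taken to pair the livers.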
